A study of Arabidopsis thaliana with 14 samples.

Results

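Transcripts with a high signal in both micropylar and peripheral endosperm, and a low one elsewhere in the seed, are described here. They were chosen from the measured values. Signals below 25 were set to 25 and averaged over the 2 arrays of a group. A probe set (the group of short oligonucleotides that stands for a transcript on the array) was kept if its mean reached 200 in both endosperm parts, and if both means were at least 3 times the highest mean of embryo proper, chalazal endosperm, chalazal seed coat and seed coat. EXPA4 and XTH32 were to be left out. Of these, XTH32 met the thresholds and EXPA4 did not, with a ratio of 2.32. Of 22746 probe sets that are not controls, 42 remained. In the tables used here 25 of them stand for 1 gene, 16 for none and 1 for several, and 4 of the genes have a symbol other than the locus (LBD16, TET4, DI21 and SDT).

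Wild-type *Arabidopsis thaliana* of accession Ws-0, with no treatment, was sampled as seeds held a mature green embryo, with cotyledons extending to the chalazal pole and a seed coat whose layers had not collapsed. Plants were 38 to 46 days old and siliques 1.8 to 2 cm long. Paraffin sections were cut apart by laser capture into 6 compartments. These are the embryo proper, 3 parts of the endosperm (micropylar, around the radicle tip; peripheral, along the embryo; chalazal, at the opposite pole) and 2 parts of the seed coat (chalazal seed coat, and seed coat). Whole seeds captured from sections formed the other group. Each of the 7 groups had 2 arrays (Affymetrix ATH1), called biological replicates in the labels. The labels do not say whether these came from separate plants or how many seeds were pooled, so each p-value measures only how far these samples spread, which may be technical.

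The endosperm is the product of the second fertilisation. It feeds the embryo during seed growth, and in *Arabidopsis* most of it is consumed before maturity, leaving a thin living layer around the embryo. In the mature seed this layer takes part in dormancy, and its micropylar cap weakens before the radicle emerges. Wall-modifying enzymes, proteases and storage reserves are well-known products of this layer.

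On the arrays, the median signal was between 134 and 203, and the correlation of log2 signal between the arrays of a group was between 0.818 (seed coat) and 0.936. The label of the endosperm could not be checked from its markers. Of 11 endosperm marker loci, AGL62 and MPC were on probe sets with a name, and their means in micropylar and peripheral endosperm, between 1.18 and 17.3, lay below 25. The measured embryo markers were YAB3, a regulator of leaf polarity, and STOMAGEN, a peptide that promotes stomata. Their means were between 21.8 and 41.5 in the 2 endosperm parts, against 1767 and 4047 in the embryo. The summed mean signal of 5 seed coat markers was 3175 in micropylar and 3270 in peripheral endosperm, against 11823 in chalazal seed coat and 25781 in seed coat, and the part of seed coat RNA in the endosperm signals was not tested. Single markers of these had endosperm means from 2.65 to 1523. For DELTA-VPE, a protease of the seed coat, they were 642 and 837, against 624 in chalazal seed coat and 1919 in seed coat.

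**Figure D1:**
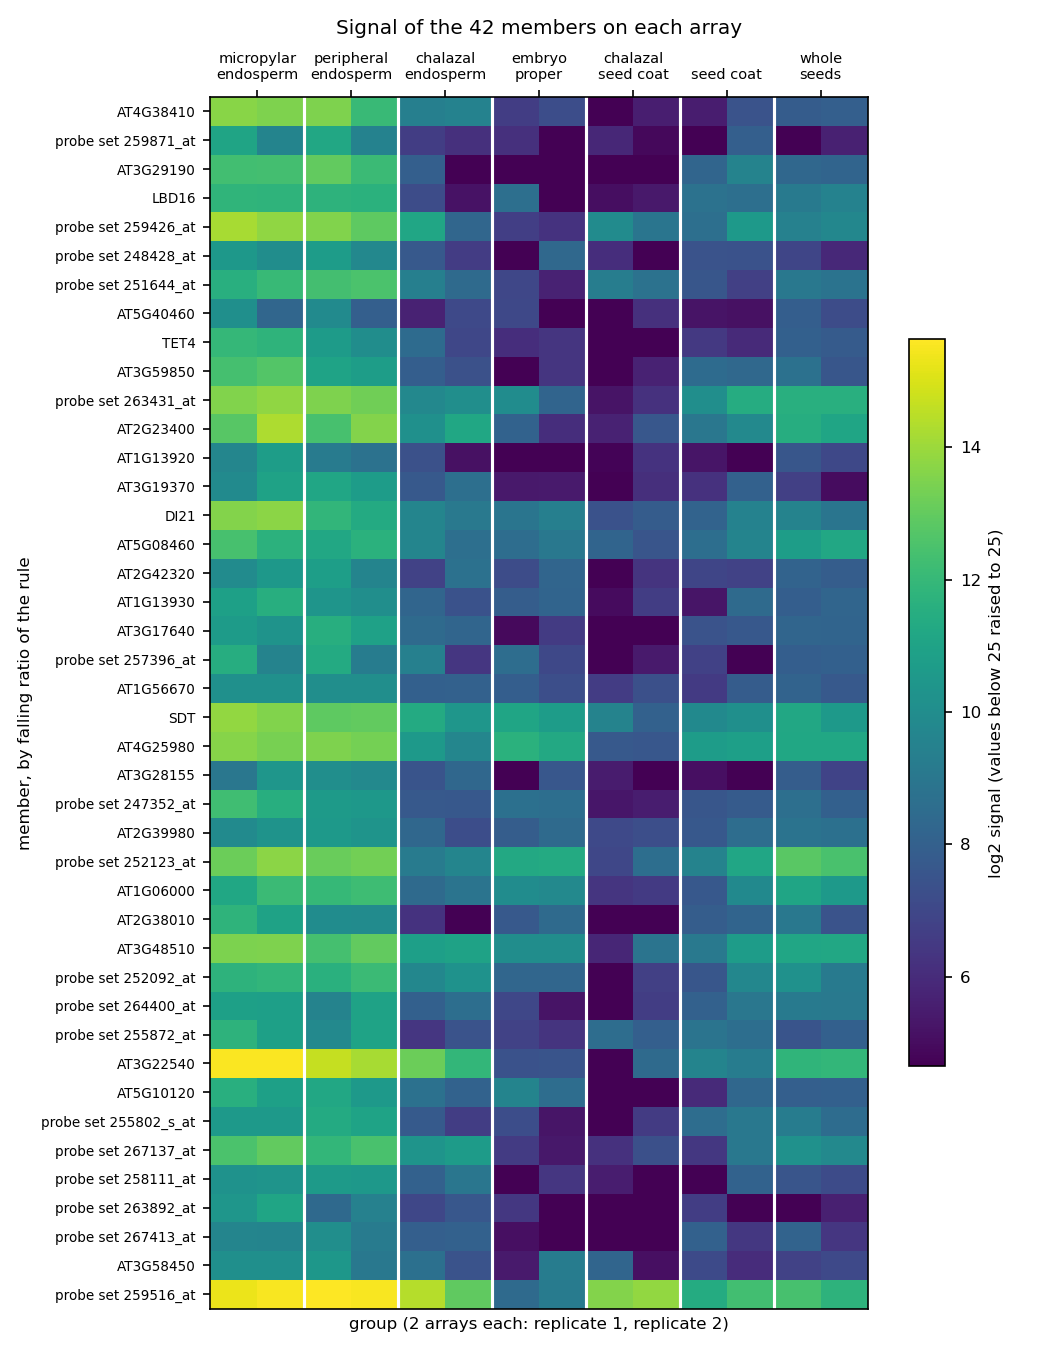
Log2 signal of the 42 members (rows, by falling ratio of the lower endosperm mean to the highest mean of the other 4 compartments) on each of the 14 arrays (columns, 2 per group, replicate 1 on the left). The 4 columns of micropylar and peripheral endosperm are the brightest in nearly every row because the rows were chosen so, and many cells of the chalazal seed coat sit at the floor of 25.

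The ratio of the lower endosperm mean to the highest other mean ran from 3.01 to 11.5 with a median of 4.03. The lower of both endosperm means ran from 514 to 44242, and the highest other mean from 92.2 to 14694. All 4 arrays of micropylar and peripheral endosperm lay above all 8 arrays of the other compartments in 40 of the 42. The choice of members largely sets this count, and its share over all probe sets was not computed. In the contrast of both parts with the other compartments, all 42 were called higher by limma at an adjusted p under 0.05. This was so for 13.6% of 14252 probe sets tested, and the choice of members fixes their count. In tissue samples like these, fewer cells of a type and less RNA per cell cannot be told apart. Just inside the threshold lay AT3G58450, of the universal stress protein family, with a ratio of 3.01. Its embryo arrays gave 42.8 and 607, and the second lay above its second peripheral array at 536. It stayed a member in 9 of 12 sets with 1 array left out. Just outside lay AT2G30990 at 2.99 and AT2G24340 at 2.90. Neither locus has a symbol in the tables used, and another 3 probe sets without a gene lay between 2.77 and 2.97.

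Gene families in what follows are background knowledge of the loci, and no role is given where it is not certain. Some members belong to families that act on walls and on the seed surface. AT3G59850, of the polygalacturonase family that cleaves pectin, gave 5390 and 6720 in micropylar endosperm, and 2084 and 1724 in peripheral endosperm. Its arrays in the other compartments gave 241 and 168 in chalazal endosperm, 6.31 and 81.3 in the embryo, 2.83 and 51.8 in chalazal seed coat, and 362 and 330 in seed coat. Both micropylar arrays thus lay above both peripheral ones, and the lowest peripheral value was several times the highest value outside. AT4G25980, of the class III peroxidases that oxidise wall phenolics, gave 12639 and 10729 in micropylar and 11592 and 10389 in peripheral endosperm, so that these groups overlapped. Outside it was highest in the embryo, with 3248 and 2483, and lowest in chalazal seed coat, with 208 and 195. A pair of loci of the GDSL lipase and esterase family, AT5G08460 and AT1G56670, had ratios of 4.69 and 4.05. AT1G56670 was even within each endosperm part, with 1134 and 1141 in micropylar and 1064 and 1072 in peripheral endosperm.

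Several members encode enzymes of specialised metabolism and lipids. SDT, a spermidine disinapoyl acyltransferase that joins sinapoyl groups to a polyamine, gave 14693 and 12019 in micropylar endosperm and 7652 and 8248 in peripheral endosperm. Its highest values outside were 2603 and 1366 in chalazal endosperm and 2221 and 1692 in the embryo, which overlap. AT2G39980, of the acyltransferase superfamily that SDT belongs to, gave 971 and 1241 in micropylar and 1495 and 1296 in peripheral endosperm, so that the higher part was the opposite one. AT3G29190, of the terpene synthase family, gave 4997 and 5284 in micropylar and 8268 and 4482 in peripheral endosperm. Outside it gave 302 and 755 in seed coat and 248 and 17.0 in chalazal endosperm, while both embryo arrays (20.2 and 9.96) and both arrays of chalazal seed coat (14.3 and 12.4) lay below 25. AT1G06000, a rhamnosyltransferase acting on flavonols, gave 2363 and 4568 in micropylar and 4146 and 4833 in peripheral endosperm, and in the embryo 1003 and 896. AT2G23400, of the cis-prenyltransferase family, differed between replicates in the same way in both parts, with 6991 and 19702 in micropylar and 5623 and 12457 in peripheral endosperm. AT2G38010, of the ceramidases that release the base of sphingolipids, gave 3585 and 2042 in micropylar endosperm and 1013 and 973 in peripheral endosperm.

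AT4G38410, of the dehydrins that accumulate as cells lose water, had the highest ratio, 11.5. It gave 13102 and 11679 in micropylar and 11738 and 4351 in peripheral endosperm. In chalazal endosperm it gave 672 and 732, in the embryo 99.7 and 153, in chalazal seed coat 2.86 and 46.8, and in seed coat 46.1 and 178. Even the low second peripheral array therefore stood far above every array outside. DI21, a drought-induced gene, gave 12206 and 13559 in micropylar endosperm, against 3806 and 2620 in peripheral endosperm. The highest value outside was 806 in chalazal endosperm, and the arrays of the embryo (484 and 672) and seed coat (279 and 736) overlapped those of chalazal endosperm (806 and 548).

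Among genes of membranes and regulation, TET4, a tetraspanin that spans the plasma membrane, gave 4010 and 3593 in micropylar and 1650 and 1037 in peripheral endosperm. In chalazal endosperm it gave 361 and 126, in the embryo 68.2 and 80.1, and in seed coat 88.5 and 61.5. Both chalazal seed coat arrays, at 11.2 and 21.0, lay below 25, and the endosperm parts did not overlap each other. AT1G13920, of the remorins of the plasma membrane, gave 817 and 1725 in micropylar and 586 and 442 in peripheral endosperm. AT3G17640, of the leucine-rich repeat proteins, was higher on both peripheral arrays (2962 and 1941) than on both micropylar ones (1629 and 1243). LBD16, a LOB-domain transcription factor known from lateral root formation, was nearly even over the endosperm, with 3688 and 3519 in micropylar and 3414 and 3223 in peripheral endosperm. Outside, its values were 445 and 403 in seed coat, and 404 and 15.02 in the embryo, where the arrays were far apart. AT5G10120, of the EIN3-like family of the ethylene pathway, gave 3019 and 1912 in micropylar and 2404 and 1503 in peripheral endosperm, and 778 and 376 in the embryo.

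The other loci have no role given here. AT3G22540 gave 48886 and 48121 in micropylar and 25904 and 18643 in peripheral endosperm, followed by 9211 and 3935 in chalazal endosperm. The arrays of embryo and both seed coats reached at most 779. AT3G48510 gave 11474 and 11730 in micropylar and 5416 and 8208 in peripheral endosperm, so that these did not overlap. AT5G40460 was uneven, with 1110 and 311 in micropylar and 967 and 248 in peripheral endosperm, the second array being the low one in both. AT3G19370 gave 970 and 1986 in micropylar and 2297 and 1703 in peripheral endosperm, and these overlapped. Of the members without a gene, 259871_at had the second highest ratio, 10.6. The lowest ratio, 3.01, was that of 259516_at, which gave 41002 and 47483 in micropylar, 50888 and 46936 in peripheral and 21490 and 7897 in chalazal endosperm, and also 12542 and 14642 in chalazal seed coat. On the chromosomes, AT1G13920 and AT1G13930 were next to each other. AT2G23400 and SDT had 8 protein-coding genes between them, and AT2G42320 and LBD16 had 10, in the TAIR10.1 gene table.

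The rule asks the same of micropylar and peripheral endosperm and does not set the sign of their difference, so this was compared. Micropylar endosperm had the higher mean in 27 members and peripheral endosperm in 15. The means lay within 1.5 times of each other in 24. In 9 members micropylar endosperm was over 2 times higher, and peripheral endosperm in 0. The shares of these counts of means over all probe sets were not computed. Both micropylar arrays lay above both peripheral arrays in 17 of 42, or 40.5%, against 19.9% of the 9060 probe sets with both means of at least 200. The opposite held for 5 members, or 11.9%, against 20.7% of these probe sets.

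By limma 0 of 42 members were called at an adjusted p under 0.05, where 0.302% of all probe sets tested were called (0.154% higher and 0.147% lower in micropylar endosperm). At an unadjusted p under 0.05 there were 6, all higher in micropylar endosperm: 4 with a gene (DI21, TET4, AT3G59850 and AT2G38010) and another 2 without. Of the 14252 probe sets tested, 1079 were so in either direction. DI21 differed most, by 2.03 ± 0.45 on the log2 scale (SE; 4.07-fold, 95% interval 2.10 to 7.91, limma adjusted p = 0.0848). Its adjusted p fell to 0.0275 without the first and 0.0351 without the second seed coat array, which share the estimate of the spread, and rose as high as 0.675 without the second peripheral array. AT3G59850 differed by 1.67 ± 0.63 (limma adjusted p = 0.473), TET4 by 1.54 ± 0.60 (limma adjusted p = 0.510) and AT2G38010 by 1.45 ± 0.67 (limma adjusted p = 0.647). The median difference of the members was 0.29 on the log2 scale, against -0.04 over all probe sets tested. It was 0.09 without the second peripheral array, and 0.09 with scaling to spike-in controls (an alternative chosen after seeing the data), which moved the median of all probe sets to -0.23. For LBD16 the difference was 0.12 ± 0.91, and its 95% interval of 0.286-fold to 4.12-fold leaves a wide range. This SE pools the spread of all groups and is not that of the endosperm arrays alone. Those lay between 3223 and 3688, whereas the arrays were far apart in the embryo (404 and 15.02) and chalazal endosperm (147 and 36.8). The difference of SDT, 0.74 ± 0.43, had an interval from 0.886-fold to 3.16-fold.

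**Figure D2:**
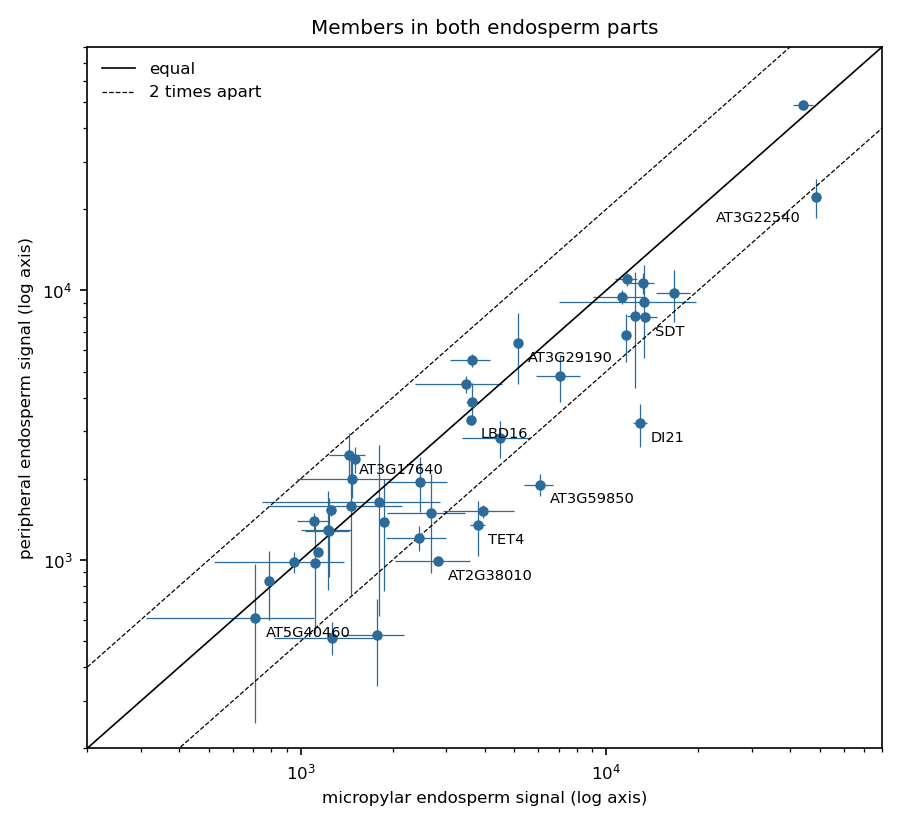
Mean signal of each member in micropylar (x, log axis) and peripheral endosperm (y, log axis); bars run from the lower to the higher of the 2 arrays. The solid line marks equality and the dashed lines 2 times apart, and 9 members lie below the lower dashed line while 0 lie above the upper one. The shares over all probe sets were not computed.

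Chalazal endosperm is the third part of the same tissue, and the rule caps it like the embryo and the seed coats. Among these 4 compartments it held the highest mean in 23 of 42 members, the embryo in 10, seed coat in 8 and chalazal seed coat in 1. Over all 22746 probe sets these shares were 22.1% for chalazal endosperm, 24.4% for the embryo, 33.4% for seed coat and 20.1% for chalazal seed coat. The mean of chalazal endosperm was above that of the embryo in 31 members, above that of seed coat in 27 and above that of chalazal seed coat in 40, where 50.6%, 50.8% and 51.7% of the probe sets tested were so.

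Against the mean of embryo and both seed coats, 16 of 42 members were higher in chalazal endosperm and 0 were lower by limma, where 10.7% and 10.2% of all probe sets tested were called higher and lower. At an unadjusted p under 0.05 there were 22 members in either direction, against 4683 of the 14252 probe sets tested. A chalazal seed coat at the floor lowers the mean that chalazal endosperm was set against, and the part of this in the count was not tested. The median difference was 1.22 on the log2 scale, against 0.03 over all probe sets tested. AT3G22540 was higher by 4.75 ± 0.62 (26.8-fold, limma adjusted p = 6.68e-05), and no embryo or seed coat array reached either chalazal endosperm array. The dehydrin AT4G38410 was higher by 3.27 ± 0.50 (9.67-fold, limma adjusted p = 0.000263), and here too the groups did not overlap. Of the other members with a gene, AT2G23400 was higher by 2.95 ± 0.58, AT3G28155 by 2.56, AT3G17640 by at least 2.37 and AT3G19370 by 2.21. TET4 was higher by at least 2.05 ± 0.49 (at least 4.15-fold, limma adjusted p = 0.00735), a bound because both of its chalazal seed coat arrays lay below 25, as did those of AT3G17640. Members without a gene lay between these values, up to 3.69. With spike-in scaling 19.9% of all probe sets were higher and 6.53% lower, and the median of all probe sets moved from 0.03 to 0.48. The count fell to 8 without the first chalazal endosperm array, and 5 of the 16 calls were kept in every one of 23 alternatives, among them AT3G22540, AT4G38410 and AT3G17640.

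Not every member had this order. AT4G25980 differed by 0.18, LBD16 by -0.66 and AT2G38010 by -1.47 (with both chalazal seed coat arrays raised to 25), and none of these was called. In AT2G38010 the chalazal endosperm arrays gave 76.8 and 6.22, below both embryo arrays at 213 and 346 and both seed coat arrays at 238 and 288.

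**Figure D3:**
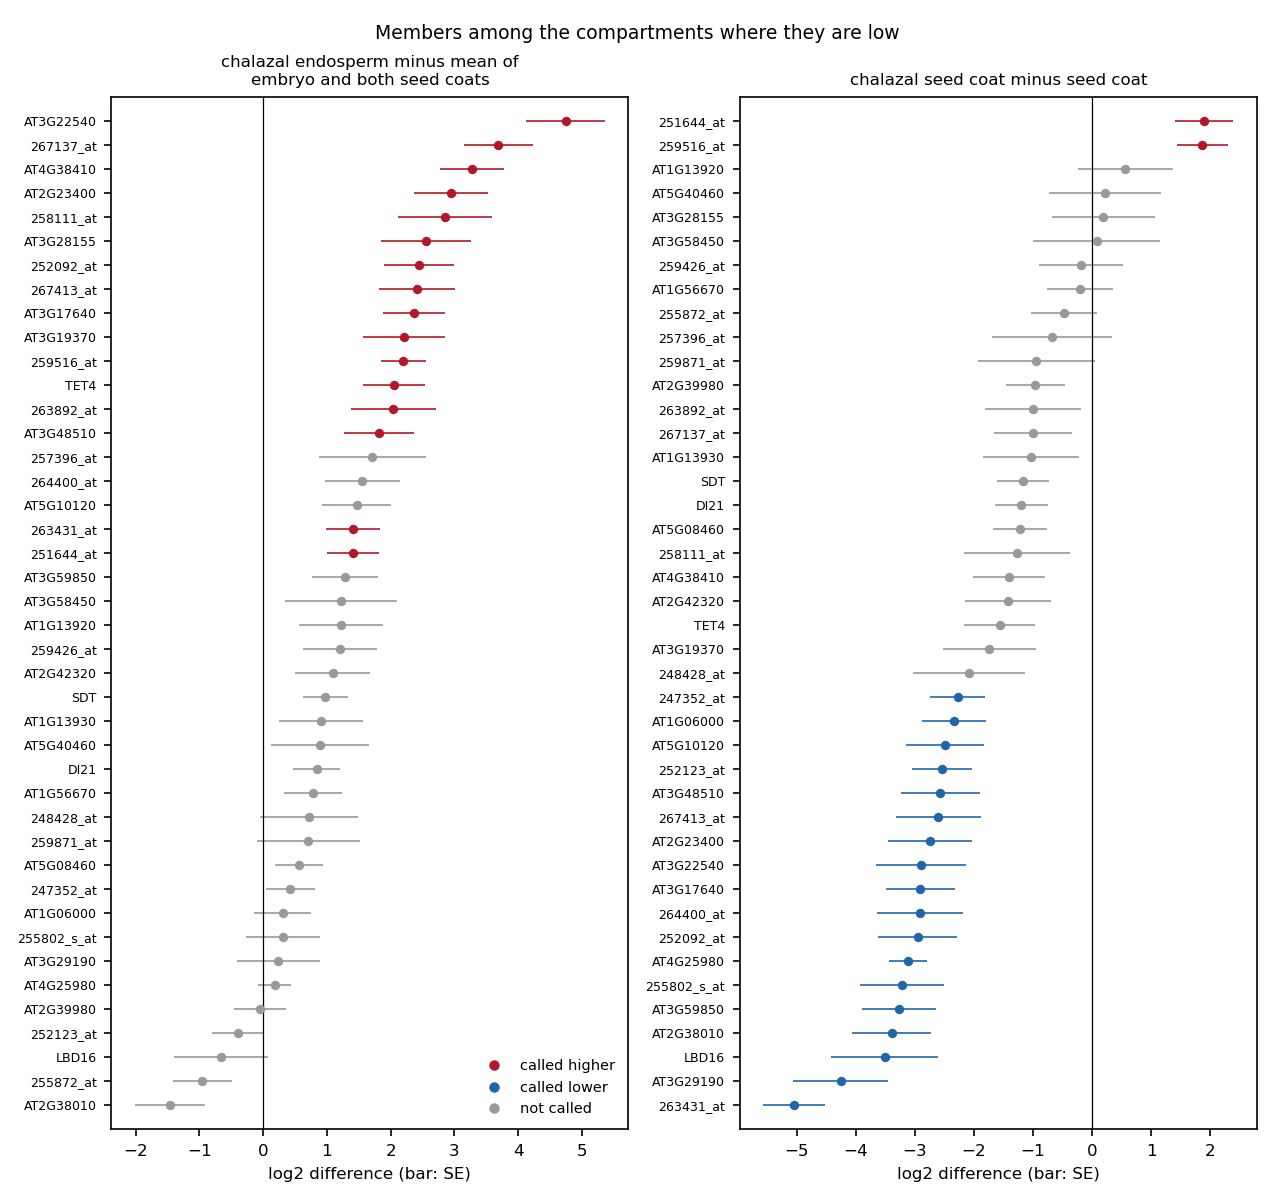
Log2 difference of each member (points, with SE as bars) between chalazal endosperm and the mean of embryo and both seed coats (left), and between chalazal seed coat and seed coat (right), sorted by size. On the left 16 members are called higher and 0 lower, on the right 2 higher and 18 lower. Both panels share the arrays of the seed coats.

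The chalazal seed coat stood at the other end. It had the lowest of the 4 means in 30 of 42 members, against 26.6% of the probe sets tested, and in 20 members at least 1 of its arrays lay below 25, in 7 of them both. Against seed coat, 18 members were lower in chalazal seed coat and 2 were higher, where 7.84% of all probe sets tested were lower and 7.21% higher by limma. At an unadjusted p under 0.05 there were 27 in either direction, against 4118 of the 14252 probe sets tested. Both of its arrays lay below both seed coat arrays in 28 members, against 28.4% of the probe sets tested. The median difference was -1.49 on the log2 scale and -0.06 over all probe sets tested.

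The peroxidase AT4G25980 fell by 3.12 ± 0.32 on the log2 scale (limma adjusted p = 1.31e-05), with 208 and 195 in chalazal seed coat against 1680 and 1820 in seed coat. The terpene synthase AT3G29190 fell by 4.26 ± 0.80 (limma adjusted p = 0.00226), and because both of its chalazal seed coat arrays lay below 25 this is at least a 19.1-fold lower value. AT3G17640 was at least 7.49-fold lower for the same reason (limma adjusted p = 0.00378), with 2.30 and 4.69 against 174 and 202. AT5G10120 was at least 5.61-fold lower (limma adjusted p = 0.0195). AT2G38010 was at least 10.5-fold lower (limma adjusted p = 0.00322). LBD16 fell by 3.51 ± 0.91 (limma adjusted p = 0.0168), from 445 and 403 to 32.8 and 42.3, and AT3G59850 fell by 3.26 ± 0.63 (limma adjusted p = 0.00261). Of the members without a gene, 263431_at fell by 5.04 ± 0.52. The higher pair had no gene either. In 259516_at the difference was 1.87 ± 0.43 (limma adjusted p = 0.00797), with chalazal seed coat at 12542 and 14642 against 2750 and 5015.

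These counts depended on single arrays and on the scale. Without the first chalazal seed coat array 8 members were lower, and without the second seed coat array 10. The seed coat arrays had spike-in control signals with geometric means of 82313 and 117011, against 33513 to 54626 on the other arrays. Scaled to these controls, 11 members were lower, against 1.98% of all probe sets lower and 36.9% higher. The median over all probe sets went from -0.06 to 1.10 and that of the members from -1.49 to -0.54. With each array divided by its median, 4.82% of all probe sets were lower and 11.4% higher, with a median of 0.29. The members' median was -2.38 without the first seed coat array and -2.31 without a floor. Of the 18, 6 were kept in every one of the 23 alternatives (AT4G25980, AT3G29190, AT3G17640, AT2G38010, AT3G59850 and 263431_at).

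In the embryo, 8 members were higher and 5 lower than the mean of both seed coats, where 19.7% and 19.4% of all probe sets tested were called by limma. These shares of 42 are near or under the background and show nothing about the members as a group. With spike-in scaling 28.0% of all probe sets were higher and 12.4% lower, and their median moved from -0.03 to 0.45. Among single genes, AT5G10120 was higher by at least 3.19 ± 0.58 (limma adjusted p = 0.000364), the rhamnosyltransferase AT1G06000 by 2.30 ± 0.47 (limma adjusted p = 0.00109) and AT4G25980 by 2.26 ± 0.28. SDT was higher by 1.52 ± 0.37 (limma adjusted p = 0.00413) and AT2G38010 by at least 1.75 ± 0.58. The values of AT5G10120 and AT2G38010 are bounds because both chalazal seed coat arrays lay below 25. In AT2G38010 the embryo arrays (213 and 346) overlapped those of seed coat (238 and 288), so the embryo stood above chalazal seed coat alone. In AT1G06000 the second seed coat array (922) lay above the second embryo array (896), and the first (202) far below. AT3G29190 was lower (limma adjusted p = 0.0225), but its arrays in both the embryo and chalazal seed coat lay below 25, so no size is given. The probe set 259516_at fell by 3.97 ± 0.37.

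The rule did not use the whole-seed arrays, but whole seeds hold all compartments. In such a mixture a transcript chosen as low in 4 of 6 compartments would mostly lie below both endosperm means, so the choice largely sets the next count. The whole-seed mean of every one of the 42 members lay below both endosperm means. It was between 2.35% and 62.4% of the mean of both, with a median of 16.4%, and in 28 members it lay below the highest of the other 4 compartments as well. Whole seeds were below the mean of the 6 compartments in 39 members, or 92.9%, against 58.7% of the probe sets tested. The median log2 ratio was -1.25 in the members and -0.15 over all probe sets tested. What part the choice of transcripts low in 4 of 6 compartments has in the other counts and ratios was not tested. The counts of 42 and 28 members were not made over all probe sets. AT4G38410 was lowest, at 2.35%, with 230 and 251 in whole seeds. Also low were 259871_at at 2.46% and a further probe set without a gene at 2.78%. A probe set without a gene was highest at 62.4%, before AT5G08460 at 56.7% (1757 and 2405) and AT1G06000 at 46.9% (2224 and 1506). In whole seeds, 35 and 32 of the members were above the array median on the first and second array.

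**Figure D4:**
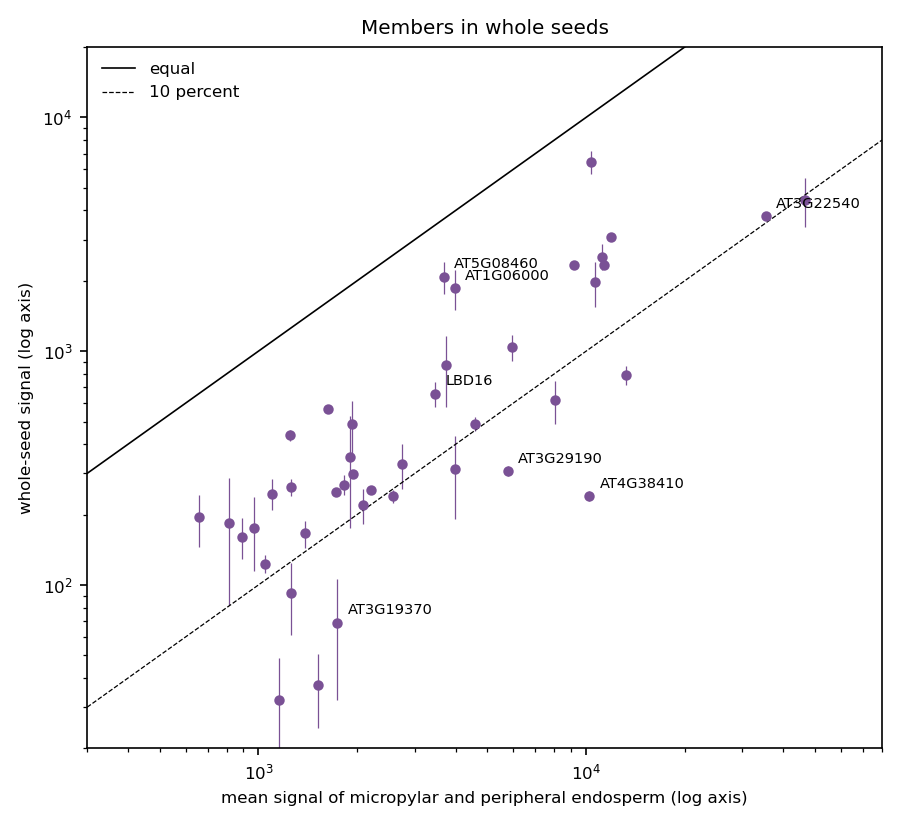
Mean signal of each member in whole seeds (y, log axis) against the mean of micropylar and peripheral endosperm (x, log axis); bars run from the lower to the higher of the 2 whole-seed arrays. All 42 points lie below the line of equality, which the choice of members largely sets, and AT4G38410, at 2.35%, lies far under the dashed line at 10 percent.

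Genes of related pathways, which are not members unless named so, were read in the contrast of both endosperm parts with the other 4 compartments, where 13.6% and 13.2% of all probe sets tested were higher and lower by limma. The median difference of all probe sets tested was -0.03 on the log2 scale. With spike-in scaling 31.6% were higher and 6.71% lower, with a median of 0.52. With each array divided by its median these shares were 18.7% and 9.51%. Of 34 wall-loosening loci 6 were tested, with a median of 1.29. Of these 3 were higher and 0 lower: XTH32, a xyloglucan endotransglucosylase, by 4.84 ± 0.37, and the expansins EXPA4 by 4.34 ± 0.34 and EXPA15 by 2.61 ± 0.33. XTH32 passed the thresholds of the rule and was left out by name, so that its direction was fixed too, and the median includes it. EXPA15 missed the rule because its embryo mean, 3984, exceeded 2281 in micropylar and 2460 in peripheral endosperm. Of 18 vacuolar and cell death proteases 7 were tested, with a median of 0.70. The vacuolar processing enzymes ALPHA-VPE (by 3.66 ± 0.30) and BETA-VPE (by 1.61 ± 0.19), the aspartic protease PASPA3 (by 2.18 ± 0.35) and the cathepsin B protease CATHB2 (by 0.53 ± 0.16) were higher, and GAMMA-VPE fell by 0.67 ± 0.21. The higher ones were not low in all other compartments. PASPA3 had its highest mean, 45824, in chalazal endosperm, against 25565 in micropylar and 30285 in peripheral endosperm. ALPHA-VPE had 8334 in chalazal endosperm, against 7996 and 13040. BETA-VPE had 20996 in the embryo, against 23095 and 21573. CATHB2 had 5108 in seed coat, against 6439 and 5516.

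Of 12 tetraspanins 8 were tested, with a median of 0.74 that includes the member TET4. The member TET4 was higher, as the rule fixes, and so were TET3 (by 2.42 ± 0.26) and TET10 (by 1.17 ± 0.37). TET8 fell by 1.86 ± 0.27. TET5 was lower too (limma adjusted p = 0.0148), but its seed coat mean of 8.80 lay below 25, so no size is given. TET3 had 3789 ± 983 (SD, n = 2) in micropylar and 975.5 ± 112 in peripheral endosperm, against 654 ± 82.4 in seed coat as its highest mean outside. TET10 had 403 ± 201 (SD, n = 2) in micropylar and 555 ± 128 in peripheral endosperm. Its means were 322 in the embryo, 314 in chalazal endosperm and 284 in seed coat, and only chalazal seed coat, at 67.5, was far lower. Of 19 sugar and amino acid transporters 4 were tested, with a median of 0.88, and the sugar exporters SWEET7 (by at least 2.09 ± 0.25, its embryo arrays lying below 25) and SWEET11 (by 1.49 ± 0.28) were higher and 0 lower. SWEET7 had 2599 in micropylar and 2727 in peripheral endosperm, below its chalazal endosperm mean of 5363. SWEET11 had 1620 and 6627, against 5589 in chalazal endosperm and 1743 in seed coat, so its micropylar mean lay below both of these. Of 11 loci of hydroxycinnamoyl amides 2 were tested, and their median of 1.15 includes the member SDT, so it shows nothing about the list. Of these SDT was higher, as the rule fixes, and HCT, which forms shikimate esters of coumarate, fell by 0.87 ± 0.30. Of 17 oil breakdown loci 2 were tested (median 0.76) and 0 called. Of 25 abscisic acid and gibberellin loci 1 was tested, the gibberellin receptor GID1A, which fell by 1.15 ± 0.25, and of 21 loci of cuticle and surface lipids 0 were on a named probe set.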

How the data were processed

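RNA of laser-captured compartments (5 to 6 ng, per the labels' protocols) was amplified with WT-Ovation Pico, labelled with biotin and hybridised to 14 ATH1 arrays. The deposited intensities, on a linear scale, were made by the authors with GCOS, per the submitters' processing notes. How GCOS computed the signals and corrected their background, and in which version, is not given here by any source. The mean of each array with 2% trimmed at both ends was near 500.05, and 0 signals were missing. They were used as deposited.

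For the tests, values below 25 were raised to 25 and log2 was taken. A model with 1 mean for each of the 7 groups was fitted with limma 3.58.1 under R 4.3.3 to the 14 arrays, with 7 residual degrees of freedom and a variance trend with intensity. The 14252 probe sets with both arrays of at least 1 group above their array's median were tested, members included, and p-values were adjusted over them (Benjamini-Hochberg, called under 0.05). Errors after ± are SE on the log2 scale unless said otherwise. A value against a group, or a mean of groups, with both arrays of one below 25 is given as a bound, and no size is given where the direction of the bound is not fixed, except in AT2G38010 as stated. Precision is limited by how few arrays there are. The script was tested on simulated data.

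Probe sets were named from a platform annotation with the TAIR10.1 gene table, which gave 1 gene for 13513, several for 503 and none for 8730 of those that are not controls. Members and lists were chosen with earlier results of these data known. Genes are named with values if they have a symbol, are among the 15 highest or 5 lowest ratios, were called in a test (up to 8 a direction), belong to a list or are extreme in whole seeds. Members without a gene are given as counts, with 3 named by ID. AT1G56670, AT2G39980, AT2G42320 and AT1G13930 were named after their values were seen. The contrast the rule used was not tested as a result for members. Alternatives were other floors, filters, scalings, thresholds and single arrays left out. Same-numbered replicates did not deviate together: over 21 pairs of groups the correlation was between -0.062 and 0.097. Sequences and coordinates are not given.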

Additional observations from a re-analysis of the deposited data

How the results depend on the processing

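Each result was recomputed without a floor, with other filters, scalings and fits, and without each array in turn. No call of a named gene changed direction; values without a call can change sign, as scaling moves all genes. Members by the rule numbered 42, and were 106 at a ratio of 2, 13 at a ratio of 5 and 83 with spike-in scaling; leaving out an array of a compartment gave 36 to 47, and 23 of 42 stayed in all 12 such sets. For micropylar against peripheral endosperm, 43 probe sets were called in all, and 20 without a floor, 18 without a filter, 26 without an intensity trend and 25 on compartment arrays alone; without 1 array the count was 8 to 58, with 0 to 1 members higher and 0 lower. For chalazal endosperm these ranges were 1387 to 3198 in all, 8 to 17 members higher and 0 to 1 lower. For chalazal seed coat against seed coat they were 974 to 2159, 1 to 2 higher and 8 to 21 lower, and spike-in scaling called 5540 in all, with 11 members lower. For the embryo they were 3920 to 5762, 6 to 12 higher and 3 to 7 lower, and 13 members were higher after division by the array median and 15 with spike-in scaling. In the contrast of both endosperm parts with the rest they were 2478 to 4084 in all, with 9 to 12 list genes higher and 2 to 5 lower; 11 were higher and 5 lower in the fit reported, 17 higher and 2 lower with spike-in scaling, and 3 lower without a floor, without a filter and after division by the median. Of the values of called members under the alternatives, those without a gene included, 35 fell short of the threshold for chalazal endosperm. For the seed coats 42 did, and for the embryo 20. Of the list genes' values in the endosperm contrast, 41 fell short of it and 18 newly passed it. Between micropylar and peripheral endosperm 2 values of DI21 newly passed it. The causes were not tested. The labels do not tie replicate numbers to a shared plant or day, and over all probe sets tested same-numbered arrays did not deviate together. With the replicate block 51 probe sets in all were called between micropylar and peripheral endosperm (0 members), 17 members were higher in chalazal endosperm, 19 lower and 2 higher in chalazal seed coat, and 9 higher and 5 lower in the embryo. Signals below 25 give only a bound on a difference, and with 2 arrays a group a missed threshold does not show equality.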

Other observations

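The arrays of a group differed in the same direction for some members in both endosperm parts. Over the 42 members the log2 ratio of the first to the second array correlated between micropylar and peripheral endosperm with r = 0.46, against 0.083 over the 14252 probe sets tested (across transcripts, which are not independent, and without a p). In 4 members the arrays were at least 2-fold apart in the same direction in both parts, and in 0 in opposite directions, where 3.20% of the probe sets tested were so in the same direction. AT5G40460 was among them, with 1110 and 311 in micropylar and 967 and 248 in peripheral endosperm, and AT2G23400 ran the other way, with 6991 and 19702 in micropylar and 5623 and 12457 in peripheral endosperm. Between micropylar and chalazal endosperm r was 0.26, with 2 members so in the same and 2 in opposite directions, and between peripheral and chalazal endosperm 0.31, with 4 and 2. Over the probe sets tested r was 0.097 and 0.051, and 4.15% and 3.19% were so in the same direction. The share in opposite directions was not counted over them. Whether same-numbered samples share a plant or a day is not given in the labels.

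The 2 arrays of most groups differed more for members than over all probe sets tested. In seed coat the median absolute log2 difference was 0.96 over the members and 0.59 over the probe sets tested. In chalazal seed coat these medians were 0.89 and 0.56, in chalazal endosperm 0.93 and 0.56, and in the embryo 0.68 and 0.49. They were 0.49 and 0.38 in peripheral endosperm, 0.38 and 0.49 in micropylar endosperm, and 0.38 and 0.39 in whole seeds. What part the low signals have in this was not tested. In seed coat 15 of 42 members were higher on the first array, against 47.7% of the probe sets tested. In chalazal seed coat 11 were, against 43.0%, and in whole seeds 29, against 50.9%.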
